A study of Mus musculus with 12 samples.

Results

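The 10 genes described here encode enzymes and cofactors of de novo lipogenesis, the building of fatty acids from acetyl-CoA. They are Acly, Acss2, Acaca, Acacb, Fasn, Me1, Scd1, Elovl5, Elovl6 and Thrsp. They were chosen by symbol, as genes of fatty acid synthesis fed by citrate and acetate, of elongation and of desaturation, among 55471 genes counted, and all 10 were among the 13866 genes with enough counts to be tested. The series measured RNA in livers of C57BL/6 mice in 4 groups of 3 samples. One group was on a standard diet (SD), one on a diet that gives metabolic dysfunction-associated steatotic liver disease (MASLD), and the other two on that MASLD diet with Aza-TdC at a relative dose of 0.1x or 1x. This nucleoside analogue is built into DNA and depletes the maintenance DNA methyltransferase DNMT1. The labels do not state the diet's composition, its length, the absolute dose, or the age, sex or genotype of the mice, and they do not say that each sample is a separate animal. The p-values therefore rest on the spread between samples that may be technical repeats.

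Fatty acid synthesis begins in the cytosol, where ACLY splits citrate and ACSS2 activates acetate to give acetyl-CoA. The carboxylases ACACA and ACACB turn acetyl-CoA into malonyl-CoA, FASN joins these units into palmitate with NADPH that comes in part from the malic enzyme ME1, and ELOVL6, SCD1 and ELOVL5 lengthen and desaturate the product. In liver the genes are known targets of the transcription factors SREBP1c, ChREBP and the liver X receptor, and THRSP is a small protein that is induced with them. Hepatic lipogenesis is known to be raised in steatotic liver.

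Promoter sequences are shown for 4 of the genes, chosen because they stood for the different outcomes on the diet: Elovl5 and Me1 rose, Acss2 fell and Fasn did not pass the test. Sequences are from RefSeq (GRCm38.p6, the same assembly as mm10), read 5′ to 3′ on the strand of the gene, and end where the gene's annotated exons begin. They cover chr11:120824548-120824797 (minus strand) for Fasn, chr2:155517793-155517947 (plus strand) for Acss2, chr9:77917115-77917363 (plus strand) for Elovl5 and chr9:86695954-86696164 (minus strand) for Me1. Capitals mark letters of the motifs searched, on either strand. In the Fasn window they are NF-Y boxes (CCAAT, or ATTGG on the other strand), of which 2 overlap. In the Acss2 window they are GC boxes (GGGCGG, or CCGCCC on the other strand). In the Elovl5 window they are an E-box (CACGTG) and NF-Y boxes. In the Me1 window they are GC boxes, the last of which runs on past the end of the window.

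Fasn: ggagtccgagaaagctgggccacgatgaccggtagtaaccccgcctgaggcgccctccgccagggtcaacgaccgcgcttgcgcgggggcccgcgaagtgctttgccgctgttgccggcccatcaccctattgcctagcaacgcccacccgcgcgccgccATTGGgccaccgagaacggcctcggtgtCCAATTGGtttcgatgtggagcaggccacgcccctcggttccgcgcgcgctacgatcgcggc

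Acss2: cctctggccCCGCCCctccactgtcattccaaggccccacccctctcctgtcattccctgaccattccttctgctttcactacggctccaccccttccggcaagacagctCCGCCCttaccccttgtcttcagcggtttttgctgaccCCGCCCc

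Elovl5: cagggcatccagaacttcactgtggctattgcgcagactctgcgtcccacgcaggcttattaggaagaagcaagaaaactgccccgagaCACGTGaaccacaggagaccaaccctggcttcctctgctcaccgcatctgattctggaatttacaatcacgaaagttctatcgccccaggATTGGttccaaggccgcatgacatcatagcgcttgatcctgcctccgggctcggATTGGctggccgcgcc

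Me1: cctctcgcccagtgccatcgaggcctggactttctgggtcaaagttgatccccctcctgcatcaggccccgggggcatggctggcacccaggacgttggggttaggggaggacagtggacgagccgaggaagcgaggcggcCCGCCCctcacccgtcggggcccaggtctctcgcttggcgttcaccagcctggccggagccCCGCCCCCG

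The search took in the 250 bases before each RefSeq start, which was on hand for 9 of the 10 genes (10 windows, since Me1 has 2 starts) and not for Scd1. The sterol response element of the SREBP1 type (TCACNCCAC) was in 0 of these windows and in 1.05% of all 32851 windows. The E-box CACGTG was in the window of 1 gene (Elovl5), against 6.02% of all windows. An NF-Y box was in windows of 6 genes (Acacb, Fasn, Acss2, Elovl5, Me1 and Thrsp), against 33.85% of all windows. A GC box was in windows of 3 genes (Acly, Acss2 and Me1), against 32.74%, and the nuclear receptor motif AGGTCA in windows of 2 (Acly and Elovl6), against 14.02%. The windows also differed in CpG sites, the positions where DNA methylation is placed: Fasn had 33 and Acaca 0, and the median over all windows was 6. The windows of Acaca and Acacb, and 1 of those of Me1, lie before a RefSeq start inside the span given for the gene below, not before its first annotated base. A match of letters is a description of the window and not a binding site, and DNA methylation was not measured here.

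Libraries held 30213048 to 41852606 counts. Marker genes fixed for hepatocytes were abundant in every library, as the liver label says, and their summed level ran from 187000 to 198000 CPM (counts scaled to library size) in SD and was lower in the other groups, at 100000 to 152000. On the MASLD diet 15.6% of all genes tested rose and 13.9% fell, and 9 of 10 hepatocyte markers fell. Of the other markers tested, 9 of 10 of macrophages, 8 of 9 of stellate cells, 5 of 8 of endothelial cells, 5 of 7 of cholangiocytes and 1 of 4 of adipocytes rose. Macrophage markers summed to 100 to 159 CPM in SD, 224 to 322 in MASLD, 233 to 294 at 0.1x and 108 to 207 at 1x. Stellate cell markers summed to 144 to 157, 250 to 367, 211 to 260 and 194 to 230 CPM in the same order. Adipocytes also make these lipogenic enzymes. Of their 8 markers, Lep had 0 counts in all libraries, and Adipoq had at most 2, Plin1 at most 3 and Retn at most 4 in any. The other 4 were counted. Fabp4 had 456 counts over SD and 1571 over MASLD, Lipe 1895 and 2454, Cfd 75 and 286, and Adrb3 40 and 53. All 4 had positive log2 fold changes on the diet (median 0.85), and which cells they came from was not tested. Lymphocyte markers summed to at most 9.94 CPM in any library. The part of cell composition in the results below was not tested, and in such bulk tissue fewer cells of a type and less RNA per cell cannot be told apart. Counts also followed the GC content and the length of the transcript to an extent that varied by library (the GC and length trend), and this was strongest in 0.1x sample 3 and 1x sample 2, explaining 22.3% and 18.6% of the variance of their deviations from the mean of all libraries.

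On the MASLD diet the RNA of the desaturase Scd1 and the elongase Elovl5 rose most, and that of the malic enzyme and both carboxylases rose too. There 5 genes rose (Scd1, Elovl5, Me1, Acacb and Acaca), 1 fell (Acss2) and 4 did not pass the test (Fasn, Elovl6, Acly and Thrsp). Over all genes tested 29.5% were called in this comparison (15.6% higher and 13.9% lower). The median log2 fold change of the 10 genes was 0.66, beside 0.03 over all genes tested. All tests of single genes are edgeR's quasi-likelihood F test, two-sided, with Benjamini-Hochberg adjustment over all genes tested and a call at an adjusted p under 0.05. Fold changes are given on the log2 scale with their standard error.

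**Figure D1:**
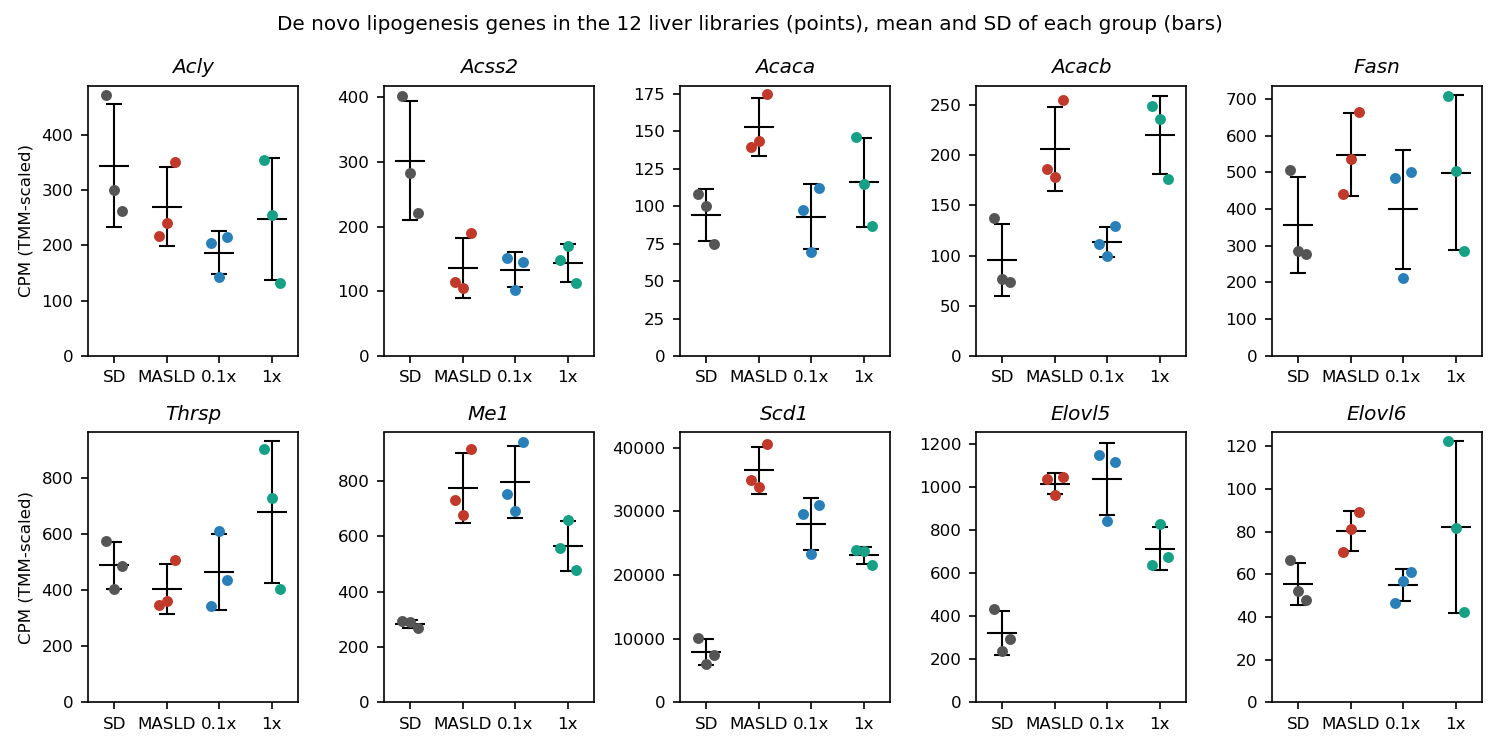
Level of each gene in CPM scaled by TMM factors (vertical axis, linear, from 0) in the 12 libraries, by group; points are libraries, and bars are the mean and SD of the 3 libraries of a group. The points of SD and MASLD are apart for Scd1, Elovl5, Me1, Acacb, Acaca, Acss2 and Elovl6, and mixed for Acly, Fasn and Thrsp.

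The acetate branch of acetyl-CoA supply fell on the diet, and the citrate branch did not pass the test. Acss2 (ENSMUSG00000027605, chromosome 2, 155517948 to 155585724, mm10), the cytosolic acetyl-CoA synthetase, stood at 402, 283 and 220.4 CPM in the 3 SD libraries and at 114, 105 and 189.7 CPM in MASLD. All SD libraries lay above all libraries on the MASLD diet, treated or not, since 0.1x held 152, 102 and 146 CPM and 1x held 149, 170.2 and 113 CPM. The fall on the diet was −1.15 ± 0.25 (adjusted p = 0.00352). Acss2 shares 395 of its 10163 exon bases (3.89%) with the glutathione synthetase gene Gss on the opposite strand, and reads from the shared bases cannot be assigned where the strand setting of the counting is unknown. Gss rose on the diet by 0.42 (adjusted p = 0.0193). Acly (ENSMUSG00000020917, chromosome 11, 100476353 to 100528000), the citrate lyase, had 472, 299.7 and 263 CPM in SD and 217, 241 and 351 CPM in MASLD, groups that overlap, with a difference of −0.35 ± 0.30 (adjusted p = 0.405).

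The carboxylases make malonyl-CoA at different places: ACACA in the cytosol for synthesis, and ACACB at the mitochondrial surface, where malonyl-CoA restrains fatty acid import. Acacb (ENSMUSG00000042010, chromosome 5, 114146535 to 114250761) read 137, 76.2 and 73.4 CPM in SD and 186, 179 and 255 CPM in MASLD. It rose by 1.11 ± 0.22 (adjusted p = 0.00197). Acaca (ENSMUSG00000020532, chromosome 11, 84129672 to 84401651) read 108, 100.1 and 74.9 CPM in SD and 139.9, 144 and 175 CPM in MASLD, again without overlap. Its rise of 0.70 ± 0.20 (adjusted p = 0.0183) depended on the processing: once the GC and length trend had been taken out it was 0.37 (adjusted p = 0.0943), without SD sample 5 it was 0.55 (adjusted p = 0.0874), and without MASLD sample 5 it was 0.59 (adjusted p = 0.0742).

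Fasn (ENSMUSG00000025153, chromosome 11, 120805846 to 120824547), the synthase itself, overlapped between the diets. It stood at 506, 285 and 278 CPM in SD and 440.4, 536 and 665 CPM in MASLD, so the highest SD library lay inside the MASLD range. The difference was 0.62 ± 0.34 (95% interval −0.11 to 1.35, adjusted p = 0.189). Among the alternatives run, Fasn passed only without a filter on low counts. Thrsp (ENSMUSG00000035686, chromosome 7, 97412938 to 97417730) had 575, 405 and 484 CPM in SD and 346, 363 and 508 CPM in MASLD, which overlap (−0.27 ± 0.26, adjusted p = 0.470). Me1 (ENSMUSG00000032418, chromosome 9, 86581371 to 86695953), which makes NADPH from malate, was nearly level among the SD libraries, at 295, 291 and 268 CPM. In MASLD it stood at 732, 677 and 915 CPM, every one more than the highest SD library. Me1 rose by 1.44 ± 0.16 (adjusted p = 1.4e-05).

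Scd1 (ENSMUSG00000037071, chromosome 19, 44394455 to 44407879), the main stearoyl-CoA desaturase of liver, was by far the most abundant of the genes. It read 10092, 6081 and 7507 CPM in SD and 34998, 33799 and 40669.7 CPM in MASLD. Its rise, 2.21 ± 0.20 (adjusted p = 2.3e-06) or 4.62-fold, was the largest among the 10 genes. Reads that Scd1 shares with its close relatives Scd2 and Scd3 could be split in ways the sources do not state. Scd2 stood at 16.1 and Scd3 at 3.72 CPM in MASLD, far below Scd1. Elovl5 (ENSMUSG00000032349, chromosome 9, 77917364 to 77984519), an elongase that acts mainly on polyunsaturated fatty acids, read 434, 239.6 and 295 CPM in SD and 1039, 964 and 1051 CPM in MASLD. It rose by 1.66 ± 0.20 (adjusted p = 2.6e-05), with the MASLD libraries close together and all above the SD libraries. Elovl6 (ENSMUSG00000041220, chromosome 3, 129532355 to 129638495), which lengthens palmitate to stearate, read 66.8, 52.0 and 48.2 CPM in SD and 70.7, 81.3 and 89.5 CPM in MASLD. These groups did not overlap either, but the difference of 0.53 ± 0.27 did not pass the test (adjusted p = 0.145). Elovl6 did pass without a filter on low counts, when only SD and MASLD were fitted, and without 1x sample 5 (adjusted p = 0.0343).

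Because Scd1 rose so far from a high level, the 10 genes together took 0.7026 to 1.115% of all counts in SD and 4.117 to 4.822% in MASLD. Scd1 alone was 74.95 to 78.92% of the counts of the 10 genes in SD and 90.64 to 91.42% in MASLD. Without Scd1 the sum of the other 9 genes was 2005 to 2996 CPM in SD and 3286 to 4199 CPM in MASLD. Per kilobase of transcript, Scd1 ranked first among the 10 genes in all 12 libraries, and Thrsp held rank 2 or 3 in each. On that scale Acaca, Acacb and Elovl6 held the last 3 ranks in every library, at group means of 9.23 to 25.1 CPM per kb. The order between them was not stable across libraries.

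**Figure D2:**
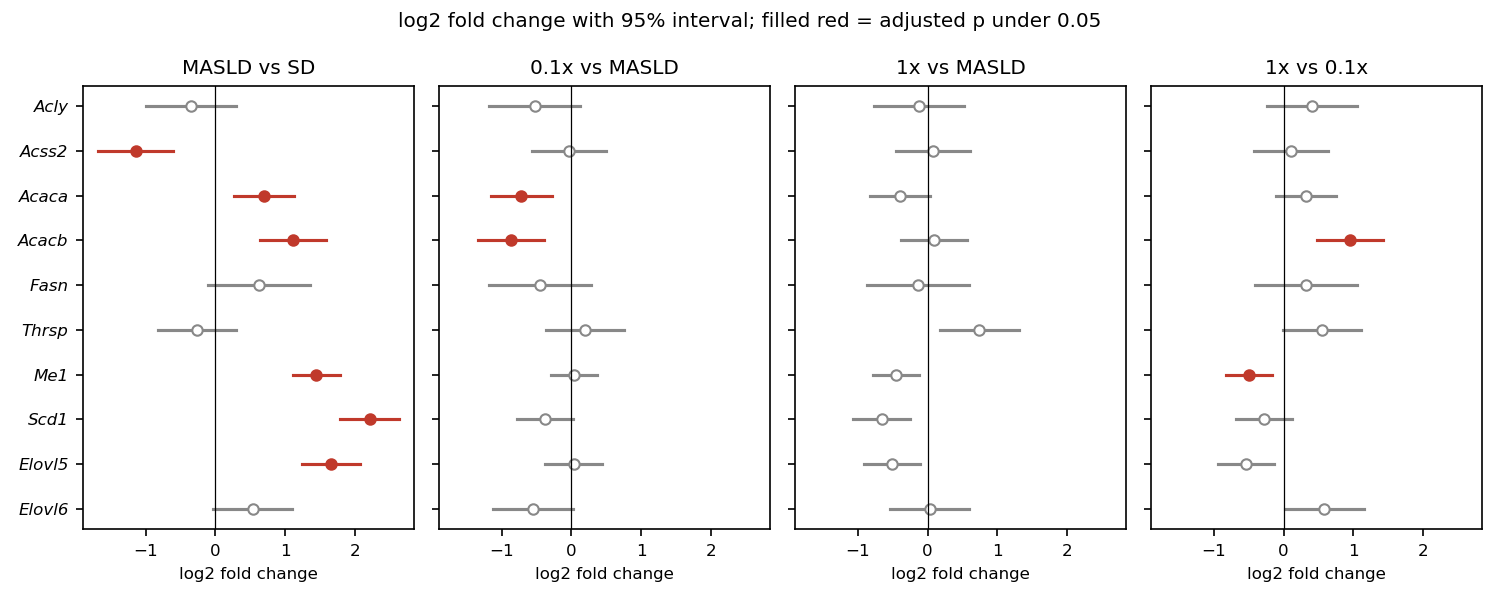
Log2 fold change (horizontal axis) of each gene with its 95% interval, in 4 comparisons; filled red points passed at an adjusted p under 0.05. In MASLD vs SD 6 of the 10 intervals belong to calls, in 0.1x vs MASLD 2, in 1x vs MASLD 0 and in 1x vs 0.1x 2.

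At the lower dose of Aza-TdC both carboxylases were lower than in MASLD, and the desaturase, elongase and malic enzyme genes that had risen most on the diet did not pass the test. In all, 0 of 10 rose and 2 fell (Acaca and Acacb), and 13.2% of all genes tested were called in this comparison. The median log2 fold change of the 10 genes was −0.42, beside −0.02 over all genes. Acacb read 112, 99.8 and 129 CPM at 0.1x, below every MASLD library, and fell by 0.86 ± 0.22 (adjusted p = 0.0240). Acaca read 97.8, 69.6 and 112 CPM, also below every MASLD library, and fell by 0.72 ± 0.20 (adjusted p = 0.0332). Both calls ended with the GC and length trend removed, where the differences were −0.32 for Acacb (adjusted p = 0.401) and −0.26 for Acaca (adjusted p = 0.399). Both calls also ended without any of MASLD samples 3, 4 and 5 and 0.1x samples 1 and 3. The differences without these, in that order, were −0.93, −0.95, −0.68, −0.85 and −0.77 for Acacb (adjusted p = 0.0521 to 0.102) and −0.78, −0.76, −0.61, −0.75 and −0.54 for Acaca (adjusted p = 0.0632 to 0.120).

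Among the other genes at 0.1x, Scd1, Elovl6 and Acly lay below every MASLD library without passing the test. The share of all genes tested that lay so was not counted, so no tendency of the pathway is read from these genes. Scd1 read 29677, 23308 and 31010.1 CPM (−0.38 ± 0.19, adjusted p = 0.182). Elovl6 read 46.6, 57.1 and 61.1 CPM (−0.55 ± 0.27, adjusted p = 0.173). Acly read 204, 142 and 215 CPM (−0.53 ± 0.30, adjusted p = 0.249). For these genes 0.1x sample 3 was the lowest of its group in Scd1 and Acly and not in Elovl6. Fasn read 485, 213 and 501 CPM, with 0.1x sample 3 far below the other two (−0.45 ± 0.34, adjusted p = 0.388). That sample is the library with the strongest GC and length trend, and Fasn, at 57.9% GC and 10.05 kb, is the longest and most GC-rich of the 10 transcripts. With the trend removed the Fasn difference was 0.07 and not negative, so no direction is given. Thrsp read 345, 611 and 435 CPM, here with 0.1x sample 3 the highest (0.19 ± 0.26, adjusted p = 0.655).

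Elovl5 and Me1 stayed near their MASLD levels at 0.1x. Elovl5 read 1151, 846 and 1119.9 CPM, a difference of 0.03 with a 95% interval of −0.38 to 0.43. Me1 read 751, 693 and 941 CPM, a difference of 0.04 with an interval of −0.29 to 0.37. For Acss2 the difference was −0.03 with an interval of −0.56 to 0.50. These intervals bound the change without showing that the groups are alike.

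At the higher dose none of the 10 genes passed the test against MASLD, where 3.11% of all genes tested were called (431 genes, and 2362 at an unadjusted p under 0.05). DESeq2 called 1 gene there, Scd1, and 4 passed without a filter on low counts. Scd1 also passed with only the groups compared in the fit, and without SD sample 3 or 0.1x sample 3. Elovl5 passed with only the groups compared too, and Thrsp without 1x sample 5. The median log2 fold change of the 10 was −0.13. Scd1, Elovl5 and Me1, which had risen most on the diet, were below every MASLD library without passing. Both comparisons use the same MASLD samples, so picking genes high in them favours a lower value at 1x. The share of all genes tested that lay below every MASLD library was not counted. Scd1 read 23935, 23852 and 21579 CPM at 1x, a tight group below every MASLD library (−0.66 ± 0.19, 95% interval −1.06 to −0.26, adjusted p = 0.0761). Elovl5 read 638, 828 and 678 CPM, also below every MASLD library (−0.51 ± 0.19, interval −0.92 to −0.10, adjusted p = 0.174). Me1 read 556, 661 and 478 CPM, again without overlap (−0.46 ± 0.16, interval −0.79 to −0.12, adjusted p = 0.139).

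The remaining genes overlapped MASLD at 1x, and several were spread widely. Acacb read 249, 236 and 176 CPM, at the MASLD level (0.09 ± 0.22, interval −0.38 to 0.56), and Acaca 146, 115 and 87.0 CPM (−0.40 ± 0.20, adjusted p = 0.335). Fasn read 708, 503 and 285 CPM, Elovl6 123, 81.8 and 42.2 CPM, Acly 354, 256 and 133 CPM, and Thrsp 903, 727 and 406 CPM. In each of these 4 genes 1x sample 2 was the highest and 1x sample 5 the lowest of the group. The same order held in Acaca, Acacb and Scd1. Sample 2 is the 1x library with the strongest GC and length trend, and the part of that trend in this order was not tested. Of the 4, Thrsp differed most from MASLD (0.74 ± 0.26, interval 0.18 to 1.31, adjusted p = 0.155).

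Setting the doses against each other also tests whether their effects differ, since both were compared with the same MASLD samples. Among these genes 1 was higher at 1x than at 0.1x (Acacb) and 1 lower (Me1), and 13% of all genes tested were called. Acacb was higher by 0.96 ± 0.22 (adjusted p = 0.0164), with every 1x library above every 0.1x library. The call ended with the trend removed (0.53, adjusted p = 0.147), without 1x sample 2 (0.85, adjusted p = 0.0873) and without both 0.1x sample 3 and 1x sample 2 (0.77, adjusted p = 0.142). Me1 was lower by 0.49 ± 0.16 (adjusted p = 0.0495), also without overlap, a call at the edge of the threshold. It ended with the trend removed (−0.50, adjusted p = 0.102), when only the groups compared were fitted (−0.50, adjusted p = 0.103), and without any single one of SD samples 3, 4 and 5, MASLD samples 3 and 4, 0.1x samples 1 and 4, and 1x samples 2 and 5. In those fits Me1 ran from −0.53 to −0.35 (adjusted p = 0.0534 to 0.177). Elovl5 was lower at 1x without overlap and did not pass (−0.54 ± 0.19, adjusted p = 0.0724).

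**Figure D3:**
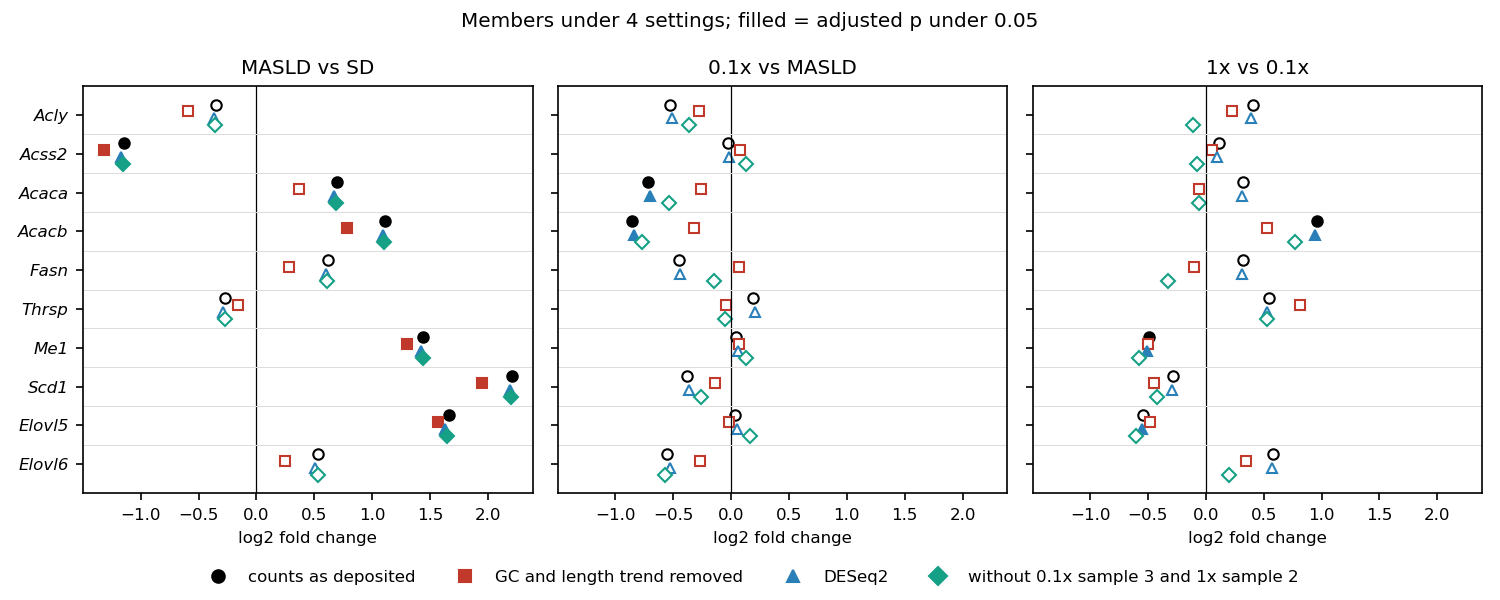
Log2 fold change (horizontal axis) of each gene under 4 settings: counts as deposited, the GC and length trend removed within each library, DESeq2, and without 0.1x sample 3 and 1x sample 2; filled symbols passed at an adjusted p under 0.05. In MASLD vs SD the symbols of Scd1, Elovl5, Me1, Acacb and Acss2 are filled under all 4 settings, while at 0.1x the filled symbols of Acaca and Acacb turn open with the trend removed and without the 2 libraries.

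Against SD both treated groups had more Scd1, Elovl5 and Me1 RNA and less Acss2 RNA. At 0.1x 3 of the 10 genes were higher than in SD and 1 lower, where 20.7% of all genes tested were called. Scd1 was higher by 1.83 ± 0.19, Elovl5 by 1.69 ± 0.20 and Me1 by 1.48 ± 0.16, and Acss2 was lower by 1.18 ± 0.25 on the log2 scale (−1.18, adjusted p = 0.00445). Acly was below every SD library without passing (−0.88 ± 0.31, adjusted p = 0.0529). It did pass without a filter on low counts, with only the groups compared in the fit and with the trend removed. It also passed without SD sample 5, 1x sample 2 or 1x sample 5. Acaca and Acacb, the genes that fell at 0.1x, overlapped SD there (−0.02 ± 0.20 and 0.25 ± 0.22). At 1x 4 of the 10 genes were higher than in SD and 1 lower, where 19.8% of all genes tested were called. Acacb was higher by 1.21 ± 0.22, Scd1 by 1.55 ± 0.19, Elovl5 by 1.15 ± 0.19 and Me1 by 0.99 ± 0.16, and Acss2 was again below SD (−1.07 ± 0.25, adjusted p = 0.00801). These comparisons share their SD samples with each other and with MASLD vs SD.

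Ratios of genes within a library show how the balance of the pathway differed between libraries. They are computed per kilobase, were picked after the values were seen and are given without a test. The ratio of Acacb to Acaca was 1.84, 2.22 and 2.19 in the 1x libraries, above all other 9 libraries, which ran from 0.824 to 1.57. Both genes were lower at 0.1x, and their ratio there, 1.24 to 1.55, lay in the range of SD and MASLD. The ratio of Elovl5 to Elovl6 was 9.85 to 13.9 in SD, 25.1 to 31.4 in MASLD, 31.7 to 52.8 at 0.1x and 11.1 to 34.4 at 1x. Scd1 over Fasn was 41.5 to 56.1 in SD and 127 to 165 in MASLD without overlap, and spread from 70.3 to 158 at 1x. The RNA of the enzymes that make acetyl-CoA from acetate and from citrate differed in balance too. Acss2 over Acly was 1.03 to 1.16 in SD, 0.534 to 0.662 in MASLD and 0.833 to 0.911 at 0.1x, groups that do not overlap, while 1x ran from 0.516 to 1.04.

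**Figure D4:**
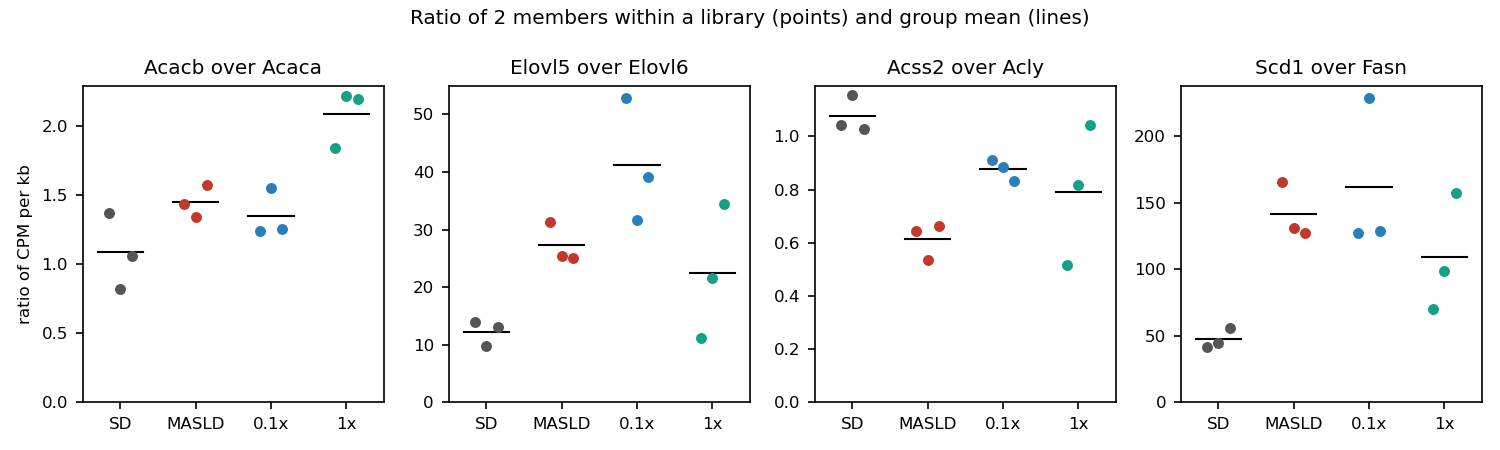
Ratios of CPM per kb between 2 of the genes within a library (vertical axis, linear, from 0), by group; points are libraries and lines are group means. Acacb over Acaca is highest in the 3 libraries at 1x (mean 2.08, against 1.45 in MASLD), and Acss2 over Acly is lower in MASLD (mean 0.614) than in SD (mean 1.08).

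Pearson correlations of log2 CPM over the 12 libraries are given as a description, since the libraries share diet, treatment and depth, so that differences between groups enter them. Scd1 and Elovl5 followed each other with r = 0.97, and Elovl5 and Me1 with r = 0.95. Taken as deviations from the group means, the correlation was 0.90 for Scd1 and Elovl5 and 0.42 for Elovl5 and Me1. On that within-group scale the closest pairs were Acly and Fasn (0.93), Acaca and Fasn (0.92) and Acly and Acaca (0.91), against 0.61, 0.87 and 0.53 over the 12 libraries. Genes outside the 10 are given without those of predicted names. The genes outside the 10 nearest to Scd1 were Ucp2, a mitochondrial carrier, and Abcc4, an export pump (both r = 0.97). Nearest to Elovl5 were Tbc1d31 (0.98) and Lpl, the lipoprotein lipase gene (0.97), and nearest to Me1 were Ehhadh, of peroxisomal fatty acid oxidation, and Pdzk1 (both 0.95).

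For Acss2 the nearest were Dhcr7, of the last step of cholesterol synthesis (r = 0.95 over the 12 libraries), and Rdh11 (0.94), and its nearest among the 10 genes was Acly at 0.77. Its correlation with Acacb was −0.30 over the 12 libraries and 0.89 within groups, with Acaca −0.03 and 0.79, and with Fasn 0.10 and 0.79. Acly in turn was nearest to Hsd17b7, also of cholesterol synthesis (0.88), and Trim14 (0.87). Nearest to Elovl6 were Gpam, which starts the synthesis of glycerolipids (0.91), and Neu3 (0.88). The other pairs were Tek (0.91) and Arhgap24 (0.91) for Acaca, Arap2 (0.96) and Slc23a2 (0.95) for Acacb, Ano8 (0.92) and Armcx4 (0.90) for Fasn, and Manea (0.87) and Cpped1 (0.85) for Thrsp.

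Genes around the pathway were read from 6 lists, and over all genes tested 15.6% rose and 13.9% fell on the diet. Of 16 genes that control lipogenic transcription, 3 rose and 4 fell on the diet. Srebf1, which encodes SREBP1, read 197, 268 and 203 CPM in SD and 327, 359.8 and 408 CPM in MASLD without overlap. Srebf1 rose by 0.71 ± 0.19 (adjusted p = 0.0111), a call that ended without SD sample 5 (0.65, adjusted p = 0.0504). Mlxipl, which encodes ChREBP, read 83.8, 73.7 and 72.4 CPM in SD and 49.98, 50.9 and 64.6 CPM in MASLD. Mlxipl fell by 0.47 ± 0.15 (adjusted p = 0.0274), a call that ended without SD sample 3 (−0.41, adjusted p = 0.0802), MASLD sample 3 (−0.41, adjusted p = 0.106) or MASLD sample 4 (−0.42, adjusted p = 0.113). The nuclear receptor gene Pparg rose by 1.29 ± 0.16 (adjusted p = 5.0e-05) and Insig2, whose product holds SREBP in the endoplasmic reticulum, by 0.95 ± 0.17 (adjusted p = 8.0e-04). Scap, the escort of SREBP, fell by 0.78 ± 0.18 (adjusted p = 0.00499) and Trib1 by 0.41 ± 0.10 (adjusted p = 0.00797). Nr1h3, which encodes the liver X receptor alpha (−0.10 ± 0.12), and Insig1 (−0.07 ± 0.21) did not pass.

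Of 18 genes that supply acetyl-CoA, citrate or NADPH, 6 rose and 2 fell on the diet. G6pdx and Pgd, the NADPH-forming steps of the pentose phosphate pathway, rose by 1.11 ± 0.22 (adjusted p = 0.00184) and 0.94 ± 0.15 (adjusted p = 3.7e-04), and Acss3, a mitochondrial relative of Acss2, by 1.49 ± 0.19 (adjusted p = 5.1e-05). Those that fell were the cytosolic malate dehydrogenase gene Mdh1 (−0.64 ± 0.12, adjusted p = 0.00144) and the citrate carrier gene Slc25a1 (−0.46 ± 0.11, adjusted p = 0.00711). Pklr, the liver pyruvate kinase, did not pass (0.22 ± 0.14, adjusted p = 0.250).

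Of 18 other desaturase, elongase and elongation cycle genes, 16 were tested (Scd4 and Elovl4 were not), and 8 rose and 0 fell on the diet. Scd2 read 3.27, 2.22 and 2.33 CPM in SD and 14.3, 19.3 and 14.7 CPM in MASLD and rose by 2.63 ± 0.26 (adjusted p = 6.2e-06). Scd3 read 0.546, 0.443 and 0.291 CPM in SD and 3.20, 3.59 and 4.37 CPM in MASLD and rose by 3.13 ± 0.29 (adjusted p = 3.1e-06). Both are close in sequence to Scd1, so their values are uncertain where reads are shared. Of 16 genes that modulate the carboxylases or the synthase, 15 were tested (Olah was not), and 3 rose and 3 fell. Mid1ip1, a relative of Thrsp that promotes assembly of the carboxylase into filaments, fell by 0.78 ± 0.16 (adjusted p = 0.00259), and its partner Mid1 rose by 1.46 ± 0.37 (adjusted p = 0.00913). Prkaa2 and Prkag2, which encode subunits of AMPK, the kinase that switches the carboxylases off, went in opposite directions (0.52 ± 0.13, adjusted p = 0.00643, and −0.58 ± 0.13, adjusted p = 0.00397). The Prkaa2 call ended with the trend removed (0.24, adjusted p = 0.104).

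Of 12 other known targets of SREBP1, ChREBP or the liver X receptor, 6 rose and 2 fell on the diet. The lipase relatives Pnpla5 and Pnpla3 went from 7 and 25 counts over the 3 SD libraries to 372 and 365 over MASLD (adjusted p = 4.1e-05 and 6.3e-05), and the cholesterol exporter gene Abca1 rose by 0.98 ± 0.14 (adjusted p = 1.1e-04). Tm6sf2 (−0.87 ± 0.15, adjusted p = 6.5e-04) and G6pc, of glucose release (−0.998 ± 0.216, adjusted p = 0.00325), fell. Of 14 cholesterol synthesis and uptake genes known as SREBP2 targets, 0 rose and 9 fell, with a median of −0.94. Cyp51 fell by 1.56 ± 0.21 (adjusted p = 8.9e-05) and Fdft1 by 1.07 ± 0.15 (adjusted p = 8.7e-05). Acss2 also fell on the diet. Its likeness in direction to these 9 genes follows from grouping genes by their calls, and a shared control was not tested.

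**Figure D5:**
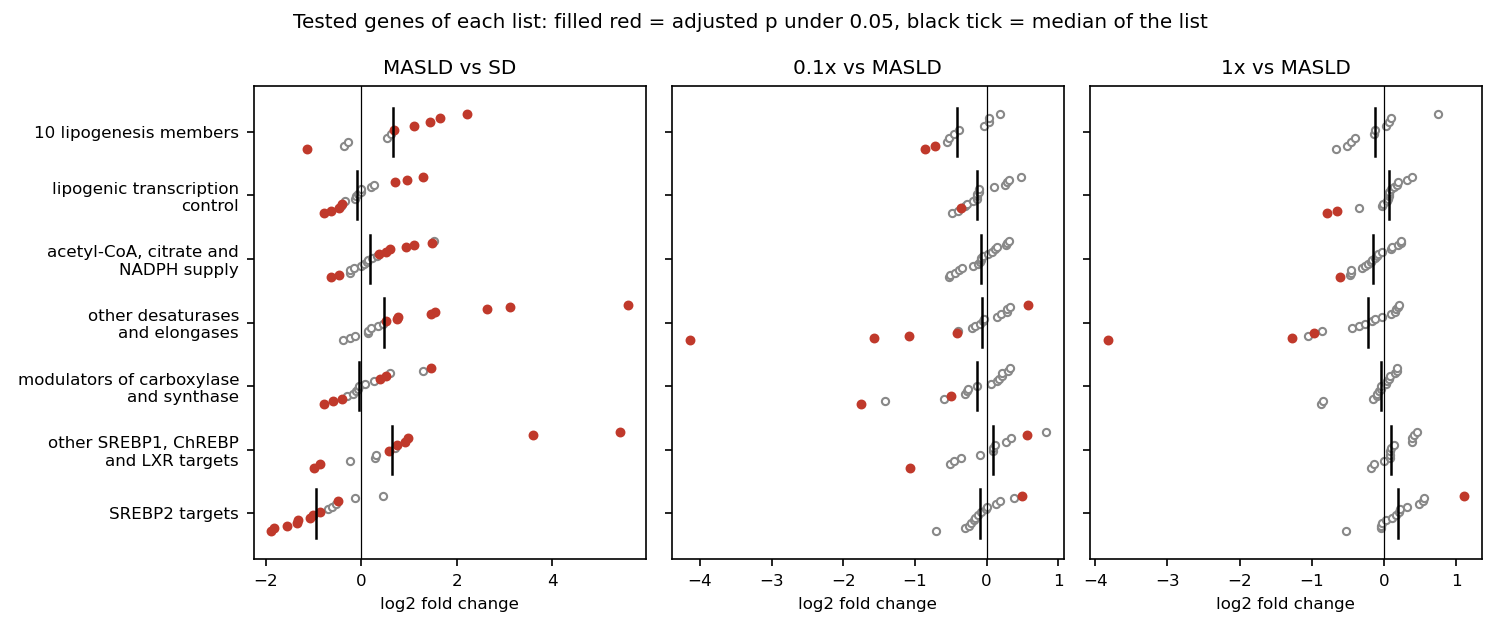
Log2 fold change (horizontal axis, its range differs between the panels) of the tested genes of each list, in 3 comparisons; filled red points passed at an adjusted p under 0.05 and black ticks are list medians. In MASLD vs SD the SREBP2 targets lie to the left (9 of 14 fell) and the other desaturases and elongases to the right (8 of 16 rose), and far fewer points are filled at either dose.

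At 0.1x against MASLD 13.2% of all genes tested were called (6.08% higher and 7.09% lower). In these lists the counts of genes that rose and fell were 0 and 1 of 16 in transcription control, 0 and 0 of 18 in supply, 1 and 4 of 16 among desaturases and elongases, 0 and 2 of 15 among modulators, 1 and 1 of 12 among other targets, and 1 and 0 of 14 among SREBP2 targets. Scd3 fell by 1.57 ± 0.26 (adjusted p = 0.00522) and Abca1 by 1.06 ± 0.14 (adjusted p = 0.00262), and both calls held with the trend removed and without any single library. Scd2 read 8.43, 4.56 and 9.86 CPM and fell by 1.08 ± 0.24 (adjusted p = 0.0145), which ended without MASLD sample 4 (−0.93, adjusted p = 0.0673) and with the trend removed (−0.77, adjusted p = 0.0528). Elovl7 had 2 counts over SD, 134 over MASLD and 6 at 0.1x, and fell (adjusted p = 0.0107), while DESeq2 gave no adjusted p for Elovl7 there. Mid1 fell by 1.75 ± 0.38 (adjusted p = 0.0137), which ended without MASLD sample 4 (−1.61, adjusted p = 0.0556).

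At 0.1x 5 further calls ended when single libraries were left out. Prkaa2 fell by 0.50 ± 0.13 (adjusted p = 0.0219), Mbtps1, the protease that cuts SREBP, fell by 0.35 ± 0.09 (adjusted p = 0.0275), and Hacd1, of the elongation cycle (0.58 ± 0.17, adjusted p = 0.0332), Tm6sf2 (0.56 ± 0.15, adjusted p = 0.0273) and Fdft1 (0.49 ± 0.15, adjusted p = 0.0401) rose. Each of these 5 calls ended without any one of MASLD samples 3, 4 and 5 and without at least 1 of the 0.1x libraries. Prkaa2 ended without sample 4 of 0.1x, Mbtps1 without 1, 3 or 4, Hacd1 without 3 or 4, and Tm6sf2 and Fdft1 without 1 or 4. The differences in these fits ran from −0.55 to −0.42 for Prkaa2, −0.38 to −0.33 for Mbtps1, 0.53 to 0.62 for Hacd1, 0.44 to 0.61 for Tm6sf2 and 0.45 to 0.53 for Fdft1. Prkaa2, Hacd1 and Tm6sf2 also ended with the trend removed (−0.19, 0.37 and 0.38), and Mbtps1 turned to 0.06 there.

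At 1x against MASLD 3.11% of all genes tested were called. The counts of genes that rose and fell there were 0 and 2 of 16 in transcription control, 0 and 1 of 18 in supply, 0 and 3 of 16 among desaturases and elongases, 0 and 0 of 15 among modulators, and 0 and 0 of 12 among other targets. Scd3 fell by 1.27 ± 0.25 (adjusted p = 0.0145), Scd2 by 0.97 ± 0.24 (adjusted p = 0.0400), Insig2 by 0.79 ± 0.17 (adjusted p = 0.0236), Pparg by 0.65 ± 0.16 (adjusted p = 0.0400) and Pgd by 0.61 ± 0.15 (adjusted p = 0.0416). Elovl7 fell to 10 counts over the 3 libraries (adjusted p = 0.0149).

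All 6 of these calls depended on single libraries. Each ended without MASLD sample 4 and without 1x sample 4. All but that of Insig2 ended without 1x sample 2, and all but that of Scd3 without MASLD sample 3. The calls of Scd2, Insig2 and Pgd ended without MASLD sample 5, and those of Scd3, Scd2, Insig2 and Pgd without 1x sample 5. Leaving out a library of another group ended Pparg (SD sample 4), Pgd (SD sample 5 or 0.1x sample 1) and Scd2 (0.1x sample 1). The adjusted p was 0.0503 to 0.224 over these fits, in which Scd3 ran from −1.33 to −1.18, Scd2 from −1.14 to −0.81, Insig2 from −0.84 to −0.61, Pparg from −0.68 to −0.49 and Pgd from −0.65 to −0.54.

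Between the doses 13% of all genes tested were called. In these lists 6 genes were higher at 1x than at 0.1x and 3 lower: 2 and 0 of 16 in transcription control, 1 and 3 of 16 among desaturases and elongases, 2 and 0 of 15 among modulators, 1 and 0 of 12 among other targets, and 0 of the supply genes and SREBP2 targets. Abca1 stood at 62.7, 49.7 and 56.2 CPM at 0.1x, in the range of SD (48.8 to 65.8 CPM), and at 137, 108 and 106 CPM at 1x, in that of MASLD (115 to 123 CPM). Its difference of 1.06 ± 0.14 (adjusted p = 0.00178) held with the trend removed and without any single library.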

How the data were processed

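RNA was isolated from liver with a column kit and sequenced in read pairs from stranded libraries of polyadenylated RNA, per the labels' protocols. The authors' reads were aligned with STAR 2.7.3a to mm10, per the submitters' processing notes. The authors deposited whole-number counts per gene for 12 libraries. How reads were counted per gene, with which strand setting and on which annotation, is not given in the sources used here. Columns were matched to samples by title, which in 1 case gave sample 5 where the library name gave 8. Of 55471 gene IDs 55230 matched GENCODE vM21, and the other 241 held 0.00328% of the counts.

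Counts were filtered with edgeR's filterByExpr, scaled by TMM and fitted for all 12 libraries together (edgeR 4.0.16, R 4.3.3), with 1 coefficient per group and a quasi-likelihood F test of each of 6 contrasts, adjusted by Benjamini-Hochberg over 13866 genes and called at an adjusted p under 0.05. The standard error of a log2 fold change was taken from the fold change and its F statistic. Levels are CPM scaled by TMM factors, and SDs are over 3 samples. The TMM factors were 0.852 to 0.866 in SD and 1.075 to 1.151 in MASLD. The test was tested on simulated data. All replicate pairs differed by more than sampling noise (lowest chi-square per degree of freedom 15.3).

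The 10 genes, the lists, the motifs and the settings were chosen with earlier results of these data known. Genes were named by a rule: the 10 genes, per list and comparison the 2 with the smallest adjusted p in each direction among those that passed, 10 regulators and pathway genes whatever their result, and per gene the 2 most correlated others. A result that the rule took is not reported here. Alternatives were DESeq2 1.42.0, RLE factors, raw library totals (for levels alone), no filter, a mean of at least 1 CPM, only the groups compared, a block by replicate number, a spline trend of GC content and transcript length (4 degrees of freedom) removed within libraries, an adjusted p under 0.01, and leaving out each library. Runs without 0.1x sample 3 and 1x sample 2 together, and all alternatives of genes outside the 10, were added after the data were seen.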

Additional observations from a re-analysis of the deposited data

Results flagged for a closer look

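For 10 of the genes named here the effects of the 2 doses against MASLD differed by the test of 1x against 0.1x (edgeR's quasi-likelihood test, adjusted p under 0.05), which is the test of that difference because both effects share the MASLD samples. Among the lipogenic genes these were Acacb, at 0.96 on the log2 scale (1x minus 0.1x), and Me1, at −0.49. Over all genes tested 13% were called in this comparison. The genes around the pathway given next were named because they passed this same test, so their passing was fixed in advance. Acacb was near MASLD at 1x and below it at 0.1x, and Me1 was near MASLD at 0.1x and below every MASLD library at 1x, where it did not pass the test against MASLD.

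Among genes around the pathway, Abca1 differed by 1.06, Fads6, a desaturase relative, by 0.60, Prkag2 by 0.45, Prkaa2 by 0.44, Trib1 by 0.43 and Mbtps1 by 0.32, all higher at 1x. Elovl3, an elongase of very long chains, differed by −1.15 and Hacd1 by −0.85, both lower at 1x. With the GC and length trend removed, the calls of Acacb (0.53), Me1 (−0.50), Fads6 (0.36), Prkag2 (0.39), Prkaa2 (0.19) and Trib1 (0.24) ended, that of Mbtps1 ended at 0 (adjusted p = 0.998), and those of Abca1 (0.67), Elovl3 (−0.98) and Hacd1 (−0.63) held. Without 1x sample 2 alone, the library with the strongest such trend at 1x, every call but that of Abca1 ended: Acacb stood at 0.85, Me1 at −0.49, Fads6 at 0.49, Prkag2 at 0.40, Prkaa2 at 0.40, Trib1 at 0.42, Mbtps1 at 0.26, Elovl3 at −1.22 and Hacd1 at −0.80. The part of the trend in these differences was not tested beyond these fits. Groups of 3 samples are too small for a test of single outlying samples.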

How the results depend on the processing

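In MASLD vs SD the calls of Scd1, Elovl5, Me1, Acacb and Acss2 kept their direction and their side of the threshold under all alternatives run on calls, and that of Acaca did not. Calls among the 10 genes there were 8 without a filter on low counts, which added Fasn and Elovl6. They were 7 with only the groups compared in the fit or without 1x sample 5, which added Elovl6. The calls of 0.1x vs MASLD and between the doses did not hold, as given above for each gene. Against SD all calls of the 10 genes held at either dose, except Acss2 in 1x vs SD with the replicate block (−1.09, adjusted p = 0.0818). Over the 10 genes, the 6 comparisons and all alternatives, 1170 of 1320 values kept direction and side of the threshold, 47 lost the call, 39 gained one and 64 changed sign. The cause of these changes was not tested, except that a stricter threshold leaves less to call by construction. Fewer samples did not always give fewer calls: without 0.1x sample 3, genes called in MASLD vs SD went from 4085 to 4837. Depth limits Elovl7, Pnpla5, Pnpla3 and Scd3, which had 2, 7, 25 and 40 counts over the SD samples. Arms left with 2 samples share the spread of the other groups.

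The replicate numbers gave no sign of pairing: deviations of same-numbered samples from their group means correlated by −0.215 to 0.076 over 12 pairs, with 0 over 0.1, against −0.176 to 0.216 over 42 other pairs, with 7 over 0.1. With so few samples per group, and a sample whose library name gives another number, this cannot show that the samples were unpaired. The fits with a block are given here alone. In 0.1x vs MASLD the call of Scd3 ended with the block (−1.44, adjusted p = 0.0663). With the block and the trend removal together it ended too (−1.32, adjusted p = 0.140), as did that of Abca1 (−0.68, adjusted p = 0.0824). Between the doses the call of Abca1 ended with the block (1.09, adjusted p = 0.106). With a replicate block, genes called were 33 in 0.1x vs MASLD, 53 in 1x vs MASLD, 0 in 1x vs 0.1x, 1379 in 0.1x vs SD and 1122 in 1x vs SD, and calls among the 10 genes 0 in 0.1x vs MASLD and 0 in 1x vs 0.1x. The sign turned in 0.1x vs MASLD Elovl5 to −0.09 and G6pdx to −0.05, in 1x vs MASLD Elovl6 to −0.41, Srebf1 to −0.11, Mlxipl to −0.09 and Mid1ip1 to −0.11, in 0.1x vs SD Fasn to −0.14, Elovl6 to 0 and Thrsp to 0.08. With the replicate block and the trend removal together, genes called were 2 in 0.1x vs MASLD, 94 in 1x vs MASLD, 0 in 1x vs 0.1x, 1716 in 0.1x vs SD and 1384 in 1x vs SD, and calls among the 10 genes 0 in 0.1x vs MASLD and 0 in 1x vs 0.1x. The sign turned in 0.1x vs MASLD Elovl5 to −0.13, Mbtps1 to 0.08, Srebf1 to 0.16, Mlxipl to 0.10 and G6pdx to −0.05, in 1x vs MASLD Elovl6 to −0.29 and Mid1ip1 to −0.09, in 1x vs 0.1x Acaca to −0.18, Fasn to −0.17, Elovl6 to −0.06, Mbtps1 to −0.02, Srebf1 to −0.14, Mlxipl to −0.08 and Scd2 to −0.17, in 0.1x vs SD Acaca to 0.06 and Elovl6 to 0.03, in 1x vs SD Acaca to −0.12, Fasn to −0.05 and Elovl6 to −0.03.

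With DESeq2, genes called were 825 in 1x vs MASLD, and calls among the 10 genes 1 in 1x vs MASLD. Without a filter on low counts, genes called were 1131 in 1x vs MASLD, and calls among the 10 genes 5 in 0.1x vs MASLD, 4 in 1x vs MASLD, 6 in 1x vs 0.1x and 9 in 1x vs SD. The sign turned in 0.1x vs MASLD G6pdx to 0. With a mean of at least 1 CPM, the sign turned in 0.1x vs SD Acaca to 0.01 and Elovl6 to 0.01. With only the groups compared in the fit, genes called were 1013 in 1x vs MASLD, 744 in 1x vs 0.1x and 1660 in 0.1x vs SD, and calls among the 10 genes 2 in 1x vs MASLD and 1 in 1x vs 0.1x. With the GC and length trend removed, genes called were 525 in 0.1x vs MASLD, 651 in 1x vs MASLD and 585 in 1x vs 0.1x, and calls among the 10 genes 0 in 0.1x vs MASLD and 0 in 1x vs 0.1x. The sign turned in 0.1x vs MASLD Fasn to 0.07, Acss2 to 0.08, Elovl5 to −0.02, Thrsp to −0.04, Mbtps1 to 0.06, Srebf1 to 0.16 and Mlxipl to 0.07, in 1x vs MASLD Pklr to 0.03, in 1x vs 0.1x Acaca to −0.06, Fasn to −0.10, Mbtps1 to 0 and Scd2 to −0.13, in 0.1x vs SD Acaca to 0.11. At an adjusted p under 0.01, genes called were 2254 in MASLD vs SD, 116 in 0.1x vs MASLD, 91 in 1x vs MASLD, 254 in 1x vs 0.1x, 1320 in 0.1x vs SD and 1357 in 1x vs SD, and calls among the 10 genes 0 in 0.1x vs MASLD and 0 in 1x vs 0.1x. Without 0.1x sample 3 and 1x sample 2, genes called were 260 in 1x vs 0.1x, and calls among the 10 genes 0 in 0.1x vs MASLD and 0 in 1x vs 0.1x. The sign turned in 0.1x vs MASLD Acss2 to 0.13, Thrsp to −0.05 and Srebf1 to 0.06, in 1x vs MASLD Acacb to 0, Elovl6 to −0.38, Mlxipl to −0.06 and Mid1ip1 to −0.01, in 1x vs 0.1x Acly to −0.11, Acaca to −0.06, Fasn to −0.33, Acss2 to −0.08, Srebf1 to −0.04, Mlxipl to −0.03, Slc25a1 to 0 and Scd2 to −0.33, in 0.1x vs SD Acaca to 0.15. Leaving out 1 library at a time, genes called ran from 2654 (without MASLD sample 4) to 4837 (without 0.1x sample 3) in MASLD vs SD, from 382 (without MASLD sample 4) to 1951 (without SD sample 3) in 0.1x vs MASLD, from 83 (without MASLD sample 4) to 661 (without 0.1x sample 3) in 1x vs MASLD, from 210 (without 1x sample 2) to 1919 (without SD sample 3) in 1x vs 0.1x, from 1790 (without SD sample 4) to 2837 (without 1x sample 2) in 0.1x vs SD and from 1699 (without 1x sample 2) to 3359 (without 0.1x sample 3) in 1x vs SD. Calls among the 10 genes ran from 0 to 2 in 0.1x vs MASLD, from 0 to 1 in 1x vs MASLD and from 0 to 3 in 1x vs 0.1x. The sign turned for 0.1x vs MASLD in Acss2 (−0.19 to 0.28), Elovl5 (−0.05 to 0.16), Me1 (−0.10 to 0.18), Thrsp (−0.05 to 0.39), Srebf1 (−0.35 to 0.05) and G6pdx (−0.25 to 0.25). The sign turned for 1x vs MASLD in Acly (−0.47 to 0.18), Acacb (0 to 0.28), Fasn (−0.47 to 0.15), Acss2 (−0.08 to 0.39), Elovl6 (−0.38 to 0.35), Mlxipl (−0.06 to 0.24), Pklr (−0.10 to 0.04) and Mid1ip1 (−0.07 to 0.20). The sign turned for 1x vs 0.1x in Fasn (−0.03 to 0.60), Acss2 (−0.05 to 0.26), Insig1 (−0.28 to 0.19), Slc25a1 (−0.03 to 0.13), Mid1ip1 (−0.25 to 0.03) and Scd2 (−0.15 to 0.34). The sign turned for 0.1x vs SD in Acaca (−0.17 to 0.15), Fasn (−0.03 to 0.50), Elovl6 (−0.11 to 0.13) and Thrsp (−0.33 to 0.10).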

Other observations

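Against SD, 9.85% of all genes tested were higher and 10.9% lower at 0.1x, and 9.91% higher and 9.84% lower at 1x. Counts of several lists around the pathway are given beside these shares. Of 14 SREBP2 targets 0 were higher and 11 lower than in SD at 0.1x (median −1.01), and 0 higher and 9 lower at 1x (median −0.77). Of 16 other desaturase and elongase genes tested 9 were higher and 0 lower at 0.1x, and 6 higher and 1 lower at 1x. Of 12 other targets of SREBP1, ChREBP or the liver X receptor 4 were higher and 1 lower at 0.1x, and 7 higher and 2 lower at 1x. Macrophage markers higher than in SD numbered 5 of 10 at 0.1x and 1 of 10 at 1x, the latter near the share over all genes. These counts share their SD samples, and differences between the counts of the doses were not tested.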
